A study of Noccaea caerulescens and Thlaspi montanum with 10 samples.

Results

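Among 41841 leaf transcripts of 3 Noccaea plants, 52 (0.124%) were read well in the nickel hyperaccumulator and strongly raised there. Their level was 8 times or more that of either non-nickel-accumulating relative. They were chosen from the measured levels themselves. The lower of the 2 firmiensis values had to reach 10 CPM (a read count divided by the library's total, times 1000000) and 8 times the highest value among the 4 libraries of the other plants. Transcripts with at most 3 reads over both libraries of each other plant were left out, which removed 3. All values that follow from this choice, the difference between firmiensis and the other plants above all, are descriptions and support nothing.

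The leaves came from wild plants in France, and each library was made from polyA RNA of 1 individual. Noccaea caerulescens subsp. firmiensis (here firmiensis), labelled a nickel hyperaccumulator, was taken at Puy de Wolf, Firmi, on 5 July. The N. caerulescens population of Viviez and the species N. montana, whose organism label is Thlaspi montanum, are labelled non-nickel-accumulators and were taken on 5 June at Viviez and at Suc de Clava. The labels name serpentine soil or a zinc mining site as the natural environment without saying which plant grew on which. Each plant has 2 individuals, and the labels give no treatment of the living plants. Plant, site and soil cannot be told apart in this design, and neither can firmiensis and the month of July. The 4 hydroponic libraries of the series were not analysed here.

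Nickel hyperaccumulators take up nickel from metal-rich soil, load it into the xylem and store it in the shoot, mostly in the vacuoles of leaf cells. Known parts of such systems in Brassicaceae are metal transporters of the plasma membrane and the vacuole, and small ligands such as nicotianamine and histidine that keep the metal bound. N. caerulescens is best known for storing zinc, cadmium and nickel to degrees that vary between its populations. A comparison of a nickel-storing population with relatives that do not store nickel asks which leaf transcripts go with that difference. The transcripts here carry contig numbers from an assembly and no gene names, so none of the 52 is tied to a function.

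Total read counts lay between 59476715 and 68439128 per library, and 3 reads corresponded to 0.0438 to 0.0504 CPM. Viviez replicate 2 carries the number 4 in its run label and the other field libraries carry 5, and the labels do not explain it. In firmiensis each of the 52 transcripts rested on at least 618 reads per library. In the other plants the median member had 8.5 to 42 reads per library, so that single low values carry a large counting error.

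The 52 transcripts were a small part of the well-read leaf transcripts of firmiensis. Of 10796 transcripts with at least 10 CPM in both firmiensis libraries, they were 0.482%. With the roles of the plants exchanged, the same rule found 45 transcripts for Viviez (0.404% of the 11141 read at 10 CPM in both of its libraries) and 341 for N. montana (2.81% of 12128). The number of strongly raised transcripts was thus similar for the N. caerulescens plants and larger for the other species. The transcript list was assembled from firmiensis, and how that shaped these numbers was not tested. All 3 counts use CPM without further scaling. With TMM factors, which scale the libraries against each other, the rule found 62 transcripts for firmiensis. The counts for Viviez and N. montana were not repeated with such scaling. Without firmiensis replicate 1 or replicate 2 the rule found 109 and 117 transcripts; a limit on the lower of 2 values can only let more through when either is left out.

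**Figure D1:**
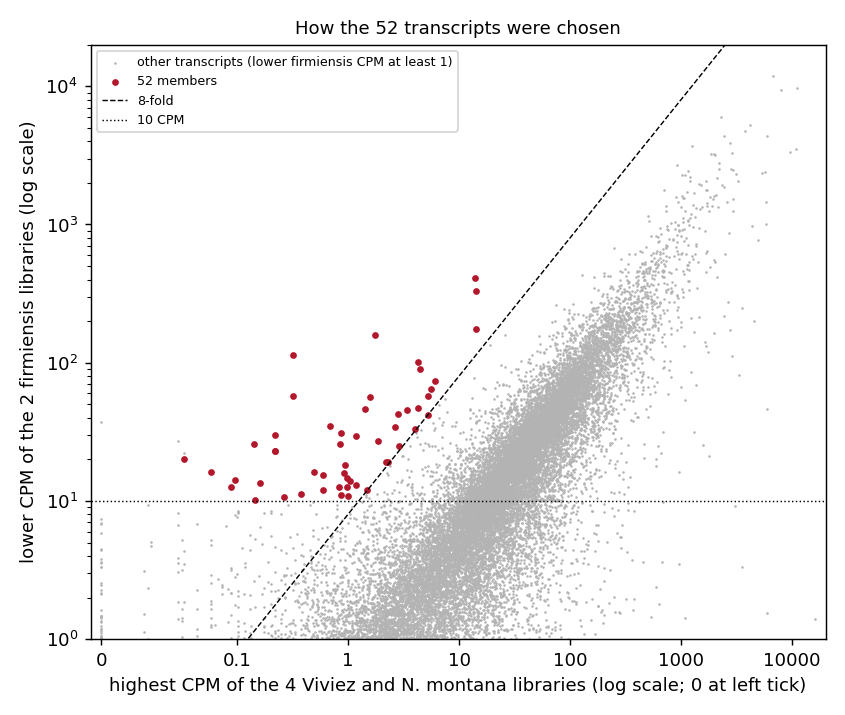
Each point is a transcript, with the highest CPM of the 4 Viviez and N. montana libraries on the horizontal axis and the lower CPM of the 2 firmiensis libraries on the vertical axis, both on log scales. The 52 members (red) lie above 10 CPM and on or above the 8-fold line, and most lie between 10 and 100 CPM in firmiensis.

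The transcripts together made up 0.350 ± 0.0414% of firmiensis reads, 0.00681 ± 0.00102% of Viviez reads and 0.00864 ± 0.00121% of N. montana reads (mean ± SD, n = 2). Within firmiensis the share was 0.379% in replicate 1 (exact 95% binomial interval 0.377 to 0.381) and 0.320% in replicate 2 (0.319 to 0.322). Without contig_522, the most abundant member, the shares were near equal, at 0.303% and 0.304%. In bulk leaves, a larger number of expressing cells and more RNA per cell cannot be told apart.

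Mean levels in firmiensis ran from 11.8 to 458 CPM with a median of 30.5 CPM. There were 14 members under 20 CPM, 22 from 20 to under 50, 7 from 50 to under 100, and 9 at 100 CPM or more. Reads were concentrated: the 9 most abundant members held 62.5% of all member reads in firmiensis replicate 1 and 55.5% in replicate 2. In the other plants the median member was much lower, at 0.367 CPM for Viviez and 0.654 CPM for N. montana, and no library of either exceeded 14.3 CPM for any member.

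Contig_522 had the highest mean level. Firmiensis replicate 1 held 757 CPM of it and replicate 2 held 159.6 CPM, while Viviez had 1.62 and 1.76 CPM and N. montana 0.307 and 0.541 CPM. The lower firmiensis value was 90.7 times the highest other value, with an exact 95% interval of 74.9 to 111 that covers counting error only. Its firmiensis individuals stood further apart from each other than the Viviez or N. montana individuals did.

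Contig_80 followed in mean level and was even between the firmiensis individuals, at 427 and 408 CPM. It stood at 2.54 and 0.754 CPM in Viviez and at 11.9 and 13.96 CPM in N. montana. The lower firmiensis value was 29.2 times the highest other value (exact 95% interval 27.4 to 31.2). N. montana thus held the higher level of the non-nickel-accumulators for contig_80, and Viviez for contig_522. In the edgeR test described below, the difference between these plants passed the threshold for contig_80 (adjusted p = 0.0112). It did not pass for contig_522 (adjusted p = 0.0743).

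The ratio of the lower firmiensis CPM to the highest other CPM ran from the limit of 8 to 605 with a median of 21.7. It was under 16 in 22 members, from 16 to under 32 in 11, from 32 to under 100 in 9 and at least 100 in 10. The highest value outside firmiensis was held by Viviez replicate 1 in 12 members, by Viviez replicate 2 in 9, by N. montana replicate 1 in 17 and by N. montana replicate 2 in 14. No single library set the upper bound for most members.

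The largest ratio belonged to contig_6380, which stood at 40.5 and 20.3 CPM in firmiensis. It had 2 reads in each Viviez library, and 0 and 2 reads in N. montana replicates 1 and 2. Its ratio of 605 therefore rests on 2 reads, and the exact 95% interval was 167 to 5005. Contig_4482 came next at 113 and 162 CPM in firmiensis. It had 6 and 19 reads in the Viviez libraries, and 0 and 2 in N. montana. Its ratio of 356 had an exact 95% interval of 228 to 592. For both transcripts the firmiensis libraries lay far above the other 4.

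**Figure D2:**
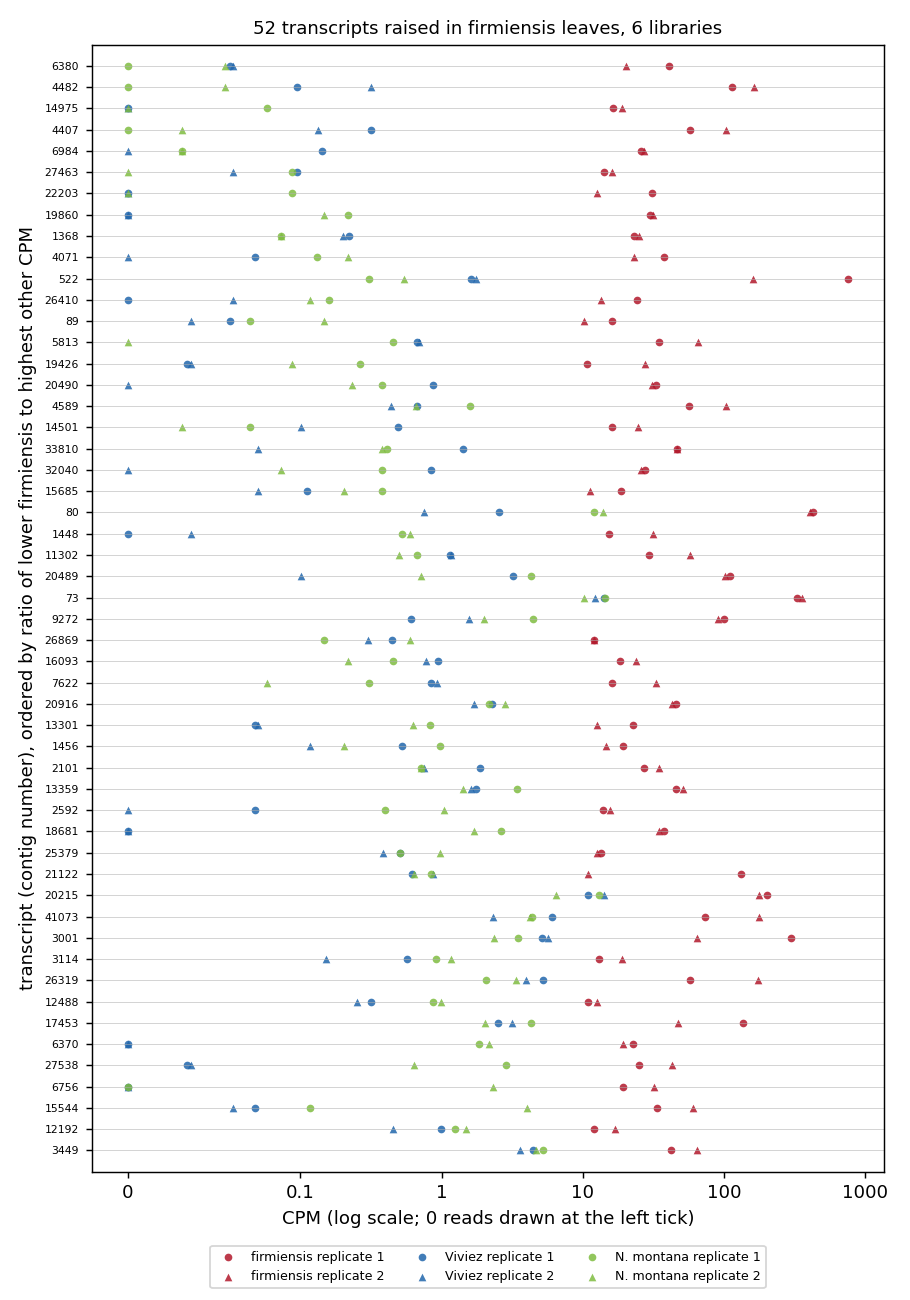
CPM of each of the 52 transcripts (rows, by contig number, largest ratio at the top) in the 6 libraries, on a log axis with 0 reads drawn at the left tick; colours are plants and symbols are individuals. Both firmiensis symbols stand at 10 CPM or more in every row, while the Viviez and N. montana symbols spread from 0 to 14.3 CPM.

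The limits of the rule cut through a continuum. The member nearest to the level limit was contig_89, at 16.1 and 10.2 CPM in firmiensis, and the nearest transcript outside was contig_7112 at 11.1 and 9.81 CPM. The member nearest to the fold limit was contig_3449, whose lower firmiensis value of 42.1 CPM was 8 times the highest other value of 5.26 CPM. The nearest outside was contig_15713, with 12.1 CPM against 1.54 CPM and a ratio of 7.85. The exact 95% intervals of these last ratios, 7.16 to 8.96 and 6.39 to 9.73, overlapped.

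The contrasts that the rule used are given for completeness. By edgeR's quasi-likelihood test, with p-values adjusted by Benjamini-Hochberg over 32989 transcripts, 51 of the 52 passed the threshold of 0.05 as higher in firmiensis than in Viviez, where 9.5% of all transcripts tested did. Likewise 51 passed against N. montana, where 15.8% of all did. The comparisons share the firmiensis libraries. All 52 had passed the filter on low counts, which their firmiensis reads alone ensure. Over both libraries of each plant, the firmiensis level had a median of 91.7 times the Viviez level, with members at 0 reads set at their bound, and 47.0 times the N. montana level.

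The member that did not pass against each plant differed, and both are named here only because of these values. Against Viviez it was contig_20489, at 109.7 and 101.5 CPM in firmiensis but 3.20 CPM in Viviez replicate 1 and 0.101 CPM in Viviez replicate 2. Against N. montana it was contig_6756, at 19.2 and 31.98 CPM in firmiensis, whose N. montana values were 0 in the first individual (replicate 1) and 2.30 CPM in the other. In both, the individuals of the lower plant lay far apart. This was also so in some members that passed, named after their values were seen. Examples are contig_20490 in Viviez (0.872 CPM and 0) and contig_15544 in N. montana (0.117 and 4.005 CPM).

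The firmiensis individuals differed more for these transcripts than for well-read transcripts at large. The ratio of the higher to the lower individual had a median of 1.45 among the 52 and 1.22 among all 10796 transcripts with at least 10 CPM in both. It was at least 2 in 10 members (19.2%) and in 6.46% of the 10796, and at least 4 in 3 members (5.77%) and in 0.63%. Neither individual was the higher throughout: replicate 1 was higher in 23 members (44.2%), against 38.2% of the 10796. These values are not scaled by TMM factors, which were 0.865 for firmiensis replicate 1 and 0.9825 for replicate 2. How such scaling would change the shares was not tested. With a pair of individuals these are descriptions without a test.

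Contig_21122 had the largest such ratio, with 131 CPM in replicate 1 against 11.0 CPM in replicate 2. In the other plants it was even, at 0.619 and 0.871 CPM in Viviez and 0.848 and 0.643 CPM in N. montana. Its place among the members was set by the lower individual, with a ratio of 12.6 to the highest other value. Contig_522, described above, followed with 4.74 times more in replicate 1. The third member past 4-fold, contig_3001, was named after its values were seen. It stood at 298 and 64.5 CPM in firmiensis and between 2.35 and 5.65 CPM elsewhere. All 3 were higher in replicate 1.

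**Figure D3:**
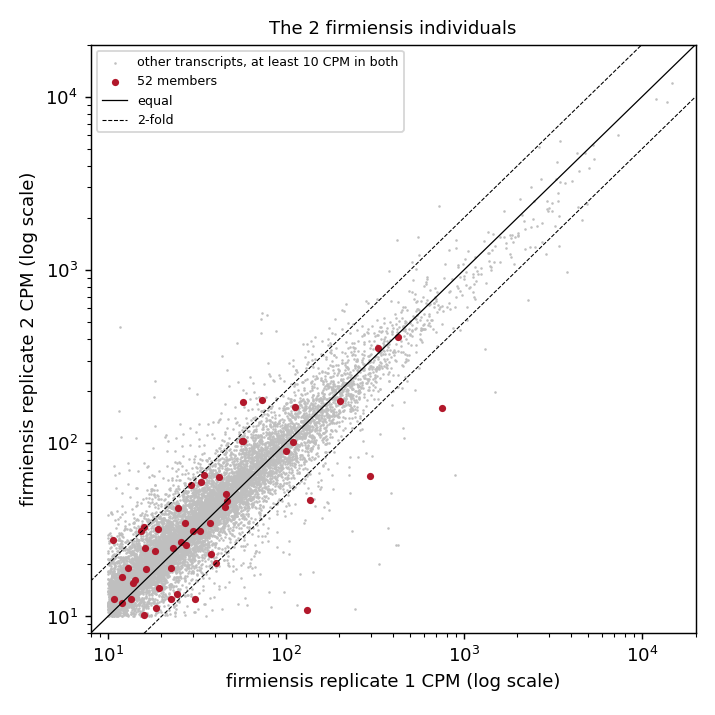
CPM in firmiensis replicate 1 (horizontal) and replicate 2 (vertical), log axes, for the 52 members (red) and the other transcripts with at least 10 CPM in both (grey), with lines of equality and of 2-fold difference. Among the members 10 lie on or beyond the 2-fold lines, and contig_21122, at 131 and 11.0 CPM, lies furthest from equality.

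The difference between Viviez and N. montana was not used to choose the transcripts, although the rule caps both levels. For most members no difference between these plants passed the test: 7 were higher and 9 lower in Viviez (edgeR, Benjamini-Hochberg adjusted p under 0.05 over all 32989 transcripts tested). These 16 are 30.8% of the members, where 36.6% of all transcripts tested passed, 16.1% as higher and 20.5% as lower in Viviez. The median log2 fold change, Viviez over N. montana, was -0.17 over the members and -0.08 over all transcripts tested, and the median absolute value was 1.52 and 1.05. Only 37 of the 52 passed the filter on low counts through the Viviez and N. montana libraries alone, and the other 15 were tested because of their firmiensis reads. Of those 37, 4 were called higher and 8 lower in Viviez. When only these plants were filtered and fitted, 1 was higher and 7 lower (21.6% of 37), where 41.6% of all transcripts in that fit passed. The share of members that passed was thus no higher than that of all transcripts in either fit, while their median absolute value was larger. Most members had few reads in these plants, and neither the shares nor the median absolute values were compared at equal depth. The shares therefore cannot show whether differences were more or less frequent among the members. Nor can the median absolute values show whether differences were larger, since they include fits on 0 or few reads. The fold changes in this paragraph are scaled by TMM factors. Without such scaling the median over all transcripts was -0.33, and 4 members were higher and 11 lower in Viviez.

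The members lower in Viviez included some that were hardly read there. Of these 9, 6 had no more than 3 Viviez reads in all, and the fitted log2 fold changes ran from -1.46 to -9.95. Contig_18681 had 0 reads in both Viviez individuals and stood at 2.64 and 1.71 CPM in N. montana, below its firmiensis values of 37.3 and 34.5 CPM. It was at least 89.1-fold lower in Viviez than in N. montana, against 3 reads over the Viviez libraries (edgeR adjusted p = 0.00158). Contig_6370 showed the same order. It stood at 22.6 and 19.2 CPM in firmiensis, at 0 in both Viviez individuals, and at 1.84 and 2.18 CPM in N. montana. It was at least 82.2-fold lower in Viviez than in N. montana (edgeR adjusted p = 0.00129). Both calls held in all 13 alternatives, over which the adjusted p ranged from 7.48e-09 to 0.0104 for contig_18681 and from 9.28e-09 to 0.00949 for contig_6370.

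The members called higher in Viviez stood at no more than 1.17 CPM in a Viviez library. Of these 7, 3 did not pass the filter through Viviez and N. montana and had under 10 N. montana reads. The other 4 had log2 fold changes of 1.23 to 2.50. Contig_7622 stood at 0.841 and 0.922 CPM in Viviez and at 0.307 and 0.0585 CPM in N. montana, next to 15.97 and 32.7 CPM in firmiensis. Viviez exceeded N. montana by a log2 fold change of 2.50 ± 0.71 (SE; adjusted p = 0.0372, edgeR). It was 4.18 without N. montana replicate 1 and 1.75 without replicate 2, and the call was lost in 7 of 13 alternatives, with adjusted p from 0.00146 to 0.126. Contig_16093 stood at 0.936 and 0.771 CPM in Viviez and at 0.453 and 0.219 CPM in N. montana, next to 18.3 and 23.8 CPM in firmiensis. Here the log2 fold change came to 1.58 ± 0.41 (SE; adjusted p = 0.0291, edgeR). Leaving out N. montana replicate 1 gave 2.26 and leaving out replicate 2 gave 1.145, and the call was lost in 6 of 13 alternatives, with adjusted p from 0.00202 to 0.121. Both were lost without either Viviez replicate, without N. montana replicate 2, with limma voom, without TMM scaling, and with only these plants in the fit; contig_7622 was also lost with the replicate number as a block (adjusted p = 0.0658). The number of members higher in Viviez fell from 7 to 2 without Viviez replicate 1 and to 3 without N. montana replicate 2.

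By single values without scaling factors, the Viviez and N. montana individuals did not overlap in 33 members. Viviez was higher in 13 of them, where 28.6% of all transcripts tested had both Viviez libraries above both N. montana libraries, and lower in 20, where 46.7% had the reverse. All 16 members that passed the test were among these 33. In the remaining 19 members the plants overlapped. Some of the 33 rest on very few reads. Contig_6380 counts as higher in Viviez on 2 reads in each Viviez library against 0 and 2 in N. montana. Contig_89 counts as lower on 2 and 1 Viviez reads against 3 and 10. The shares were not compared at equal depth, so they cannot show whether members separated more or less often than other transcripts.

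At least 20 reads in each non-nickel-accumulator were found for 29 members. Of these, 15 (51.7%) did not pass the test and had a fitted difference under 2-fold, as did 54.1% of all 25691 transcripts tested with that many reads. Some of the 15, such as contig_20489, had individuals far apart within a plant. Contig_3449 was among the 15, at 4.44 and 3.60 CPM in Viviez and 5.26 and 4.68 CPM in N. montana. Contig_73, named after its values were seen, was the most abundant of them in firmiensis, at 329 and 356 CPM. It stood at 14.1 and 12.2 CPM in Viviez and at 14.3 and 10.2 CPM in N. montana, so that these plants overlapped. A p that misses the threshold does not show equal levels.

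**Figure D4:**
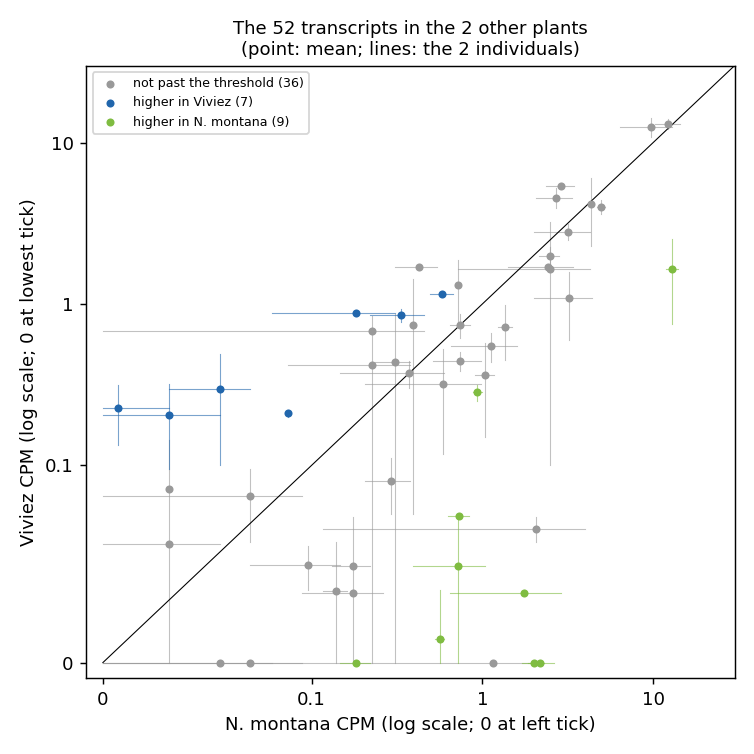
Mean CPM of the 52 transcripts in N. montana (horizontal) and Viviez (vertical), log axes with 0 at the lowest ticks; lines span the 2 individuals and colours mark the edgeR call. The 9 members higher in N. montana lie below the diagonal, several of them at or near 0 in Viviez, and the 7 higher in Viviez lie above it at 1.17 CPM or less.

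Members with hardly any reads were more numerous in Viviez than in N. montana. A plant total of at most 3 reads was found for 13 members in Viviez and for 4 in N. montana, and 35 members had more than 3 reads in both plants. No read at all was found for 6 members in Viviez and for 0 in N. montana, and this was not counted over all well-read transcripts. For those 6 the firmiensis level was at least 720-fold to at least 1467-fold higher, against 3 reads over the Viviez libraries. Among all 10796 well-read firmiensis transcripts, 34 had at most 3 reads in Viviez and more in N. montana, and the 13 members are 38.2% of them. The reverse held for 22 transcripts, of which 4 (18.2%) were members. The rest of both sets did not reach the 8-fold limit.

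In some members the reads of a non-nickel-accumulator came mostly from a single individual. In 10 members the highest value outside firmiensis was at least 4 times that of the other individual of the same plant. That value was in Viviez replicate 1 in 4 of them, in N. montana replicate 1 in 3, in N. montana replicate 2 in 3 and in Viviez replicate 2 in 0. Contig_6756 had 0 and 157 reads in N. montana replicates 1 and 2, and contig_33810 had 90 and 3 reads in Viviez replicates 1 and 2, both named after their values were seen. At 20 to 200 reads over a plant's libraries, a ratio of at least 4 between individuals was found in 5 of 21 members (23.8%) in Viviez and in 7.39% of all 9309 transcripts at that depth. In N. montana it was found in 6 of 25 members (24%) and in 12.9% of 10472 transcripts.

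A single pair of members carried consecutive contig numbers, contig_20489 and contig_20490, and was looked at after its values were seen. Contig_20490 stood at 32.8 and 31.1 CPM in firmiensis, at 0.872 CPM and 0 in Viviez replicates 1 and 2, and at 0.38 and 0.234 CPM in N. montana. Contig_20489 showed the same order of individuals within each plant, with 202 and 6 reads in Viviez and 293 and 49 reads in N. montana. Whether they are pieces of the same transcript was not tested.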

How the data were processed

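Raw read counts per assembled transcript (contig) were deposited, per the file headers, in 1 file for each of 6 field leaf libraries. Per the labels' protocols, stranded mRNA libraries were made from DNase-treated total RNA of leaves kept in RNAlater. Per the series' design text, root and leaf reads of a hydroponically grown firmiensis plant (37.5 µM NiCl2, 20 µM Fe-HBED, 7 weeks) were assembled de novo, and that assembly was the reference for all plants. The sources used here do not name the aligner, the counting tool or any filter. How sequence differences between the plants and this reference affected counts, and how reads shared by near-identical contigs were split, was not tested. Empty cells were found for 2 of 41843 contigs, which were left out.

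Replicates are separate individuals per the series' design text, and their counts were not copies (chi-square per degree of freedom from 102.5 to 180). CPM are counts over column totals. Tests used R 4.3.3 and edgeR 4.0.16: filterByExpr (minimum count 10), TMM, glmQLFit and glmQLFTest in 1 model of all 6 libraries with 3 residual degrees of freedom, and Benjamini-Hochberg adjustment over all 32989 transcripts tested. The SE is the log2 fold change over the square root of F. DESeq2 1.42.0, limma 3.58.1 (voom), other scalings, no filter, a replicate block and leaving out each library were alternatives.

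The members and rules were chosen with earlier results of these data known. Named by rule were the 2 members of highest firmiensis mean, of largest ratio, of largest ratio between firmiensis individuals, and of largest fold change in each direction between Viviez and N. montana (past the threshold, no overlap, mean CPM of at least 0.5), and the transcripts nearest each limit. Intervals and limits of 3 reads cover counting error only, and reads without molecular identifiers are not independent molecules.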

Additional observations from a re-analysis of the deposited data

How the results depend on the processing

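The number of transcripts chosen was 85 with a minimum of 5 CPM, 30 with 20 CPM, 104 with 4-fold and 30 with 16-fold; it was 62 with TMM scaling, 60 with DESeq2 size factors and 55 with the transcripts hardly read elsewhere kept, and ran from 55 to 117 when a library was left out. The number of members higher in Viviez than in N. montana, 7, was 2 with limma voom, 4 without TMM scaling (an alternative chosen after seeing the data) and 1 when only these plants were fitted, where 37 members passed the filter; without single libraries it ran from 2 to 10. The cause of these changes was not tested. Of the 7, 4 passed the filter of the fit with only these plants, where 1 member was called higher in Viviez. The number lower in Viviez, 9, stayed between 7 and 13. The members higher in firmiensis stayed between 34 and 52 of 52 against Viviez and between 47 and 51 against N. montana. The rule used the contrasts with firmiensis, so all counts of members higher in firmiensis are descriptions and support nothing. Same-numbered individuals of different plants did not deviate together (correlations of -0.06 to 0.016), so the numbers were not taken as pairs. With the replicate number as a block, 5 members were higher and 10 lower in Viviez than in N. montana, and 50 and 51 were higher in firmiensis than in Viviez and N. montana. Depth limits the low side: 3 reads in a library are 0.0438 to 0.0504 CPM, and values at or below that rest on at most 3 reads.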
